A study of Mus musculus with 34 samples.

Results

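Fibronectin and the matricellular proteins are secreted into the extracellular matrix (ECM), and 8 of their genes were followed through the stromal vascular fraction (SVF) of visceral fat during high fat feeding. The genes were Fn1 (fibronectin), Sparc (osteonectin), Tnc (tenascin C), Thbs1 and Thbs2 (thrombospondins), Postn (periostin), Ccn5 (a CCN family protein) and Srpx (a sushi repeat protein). They were chosen by name, as secreted matrix proteins of related function, with earlier results of these data known. They are 8 of the 32098 genes listed in each of the expression tables. Male C57BL/6J mice were fed a control diet (CHOW) or a high fat diet (HFD, 60% of kcal from fat) from 6 weeks of age, and visceral fat was taken after 8, 20 or 34 weeks. Digesting the fat with collagenase and removing the adipocytes that float leaves this fraction, which holds progenitors, fibroblasts, mesothelial, vascular and immune cells. No genetic change or drug was given, and the 6 groups differed in diet and in weeks on it, and with the weeks in age. The study names alternative control feeds without saying which groups had which, so the CHOW groups may differ in feed. Of 34 libraries in all, CHOW had 4, 5 and 7 and HFD had 6, 6 and 6 after 8, 20 and 34 weeks. The labels do not say that libraries of a group came from separate mice, so each p-value measures the spread between these libraries.

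Matricellular proteins sit in the matrix without being its load-bearing fibres, and they change how cells hold on to collagen and fibronectin and how growth factors are stored there. Fibronectin is laid down early by fibroblasts as a scaffold on which collagens and other proteins assemble, and cells grip it through integrins. In fat, matrix made by progenitors and vascular cells has to be rebuilt as adipocytes enlarge, and several of these proteins are low in resting tissue and made in quantity during repair and fibrosis.

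Expression was given as TPM, a transcript abundance per fixed library total, which divides reads by transcript length and by the library's total, so levels of different genes can be set side by side. The 8 genes covered a wide range of levels. In the table of 8 and 20 weeks, Sparc ranked 81 and Fn1 174 of all genes by mean TPM, Thbs1 258 and Postn 467. Srpx ranked 2601, Thbs2 4682, Tnc 8249 and Ccn5 10806. Together they made up between 0.151% and 0.570% of all TPM in a library. All 8 passed the filter on low values in both tables, so none dropped out of a test. On mouse build GRCm38 (gencode M21) the genes span chr1:71585520-71653200 (Fn1), chr11:55394500-55423183 (Sparc), chr4:63959785-64047015 (Tnc), chr2:118111876-118127133 (Thbs1), chr17:14665500-14694235 (Thbs2), chr3:54361109-54391037 (Postn), chr2:163820861-163833146 (Ccn5) and chrX:10037977-10117709 (Srpx).

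RefSeq start-site sequences (GRCm38.p6) were matched by symbol for 5 of the 8 genes, Postn, Sparc, Srpx, Thbs2 and Tnc. Where a gene had more than 1 RefSeq start, the one nearest the annotated start was used. The 250 bases before the start are printed for Postn, Tnc and Thbs2, whose levels ran closely together at 8 and 20 weeks (values given later), and for Srpx, whose level ran the other way across all libraries of those times. Capitals mark the TATA box letters TATAAA, searched on both strands, so a match on the opposite strand reads TTTATA. The windows are chr3:54360857-54361106 on the plus strand (Postn), chr4:64047016-64047265 on the minus strand (Tnc), chr17:14694263-14694512 on the minus strand (Thbs2) and chrX:10117641-10117890 on the minus strand (Srpx), each written 5′ to 3′ along its gene.
Postn: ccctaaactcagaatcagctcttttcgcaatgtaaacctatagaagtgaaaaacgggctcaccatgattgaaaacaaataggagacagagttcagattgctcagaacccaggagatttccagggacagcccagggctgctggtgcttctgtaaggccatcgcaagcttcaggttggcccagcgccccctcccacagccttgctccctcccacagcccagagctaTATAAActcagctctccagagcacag
Tnc: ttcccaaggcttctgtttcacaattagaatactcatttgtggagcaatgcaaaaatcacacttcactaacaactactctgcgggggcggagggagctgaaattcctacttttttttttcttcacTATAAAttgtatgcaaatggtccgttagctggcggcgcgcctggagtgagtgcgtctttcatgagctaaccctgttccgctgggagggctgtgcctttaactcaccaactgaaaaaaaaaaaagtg
Thbs2: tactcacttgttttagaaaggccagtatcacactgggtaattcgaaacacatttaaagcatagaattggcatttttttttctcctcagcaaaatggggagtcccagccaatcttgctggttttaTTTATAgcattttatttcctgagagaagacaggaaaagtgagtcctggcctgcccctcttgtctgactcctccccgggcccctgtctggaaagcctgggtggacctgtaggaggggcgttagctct
Srpx: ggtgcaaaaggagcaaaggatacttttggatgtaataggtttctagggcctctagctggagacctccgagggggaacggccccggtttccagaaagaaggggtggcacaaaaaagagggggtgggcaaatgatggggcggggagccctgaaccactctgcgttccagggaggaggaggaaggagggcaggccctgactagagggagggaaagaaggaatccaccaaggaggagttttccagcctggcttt
TATAAA first appeared 26 bases before the start in Postn and 126 bases before it in Tnc, and on the opposite strand 126 bases before it in Thbs2. The Srpx and Sparc windows held no copy, and 12.4% of the 32851 RefSeq windows of this length held at least 1. CAGAC, the short SMAD motif, was found 2 times in Thbs2, 1 time in Sparc and not in the printed windows of Postn, Tnc and Srpx, against 42.2% of all windows. None of the 5 windows held TGANTCA (AP-1, 6.75% of all windows), GGAATG (TEAD, 12.6%) or the SRF CArG box (1.47%). CCAAT was found 2 times in Thbs2 and in none of the others, against 33.8% of all windows. These are matches of letters on both strands, not sites shown to be bound.

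The libraries carried the markers of a stromal fraction, and a few stood apart. Pdgfra, a progenitor marker, was at 27.9 TPM or more in every library, Pecam1 (endothelium) at 55.2 TPM or more and Adgre1 (macrophages) at 74.1 TPM or more. Replicate 3 of HFD at 8 weeks held seminal vesicle RNA, with 8 secretory genes summing to 123060 TPM and at most 15.9 TPM in any other library. Germ cell markers summed to between 2459 and 13234 TPM in replicates 3, 4 and 5 of HFD at 20 weeks and in replicates 1 and 2 of HFD at 34 weeks, against at most 1180 TPM elsewhere. Hemoglobin and other erythroid markers took 267887 TPM in replicate 6 of HFD at 8 weeks and 130027 TPM in replicate 5 of CHOW at 20 weeks, with 113222 TPM or less elsewhere. Adipocyte markers summed to 4202, 18412 and 5455 TPM in replicates 5, 6 and 7 of CHOW at 34 weeks and to at most 1178 TPM in the other 34 week libraries. Where a result turned on these libraries, its value without them is given beside it.

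**Figure D1:**
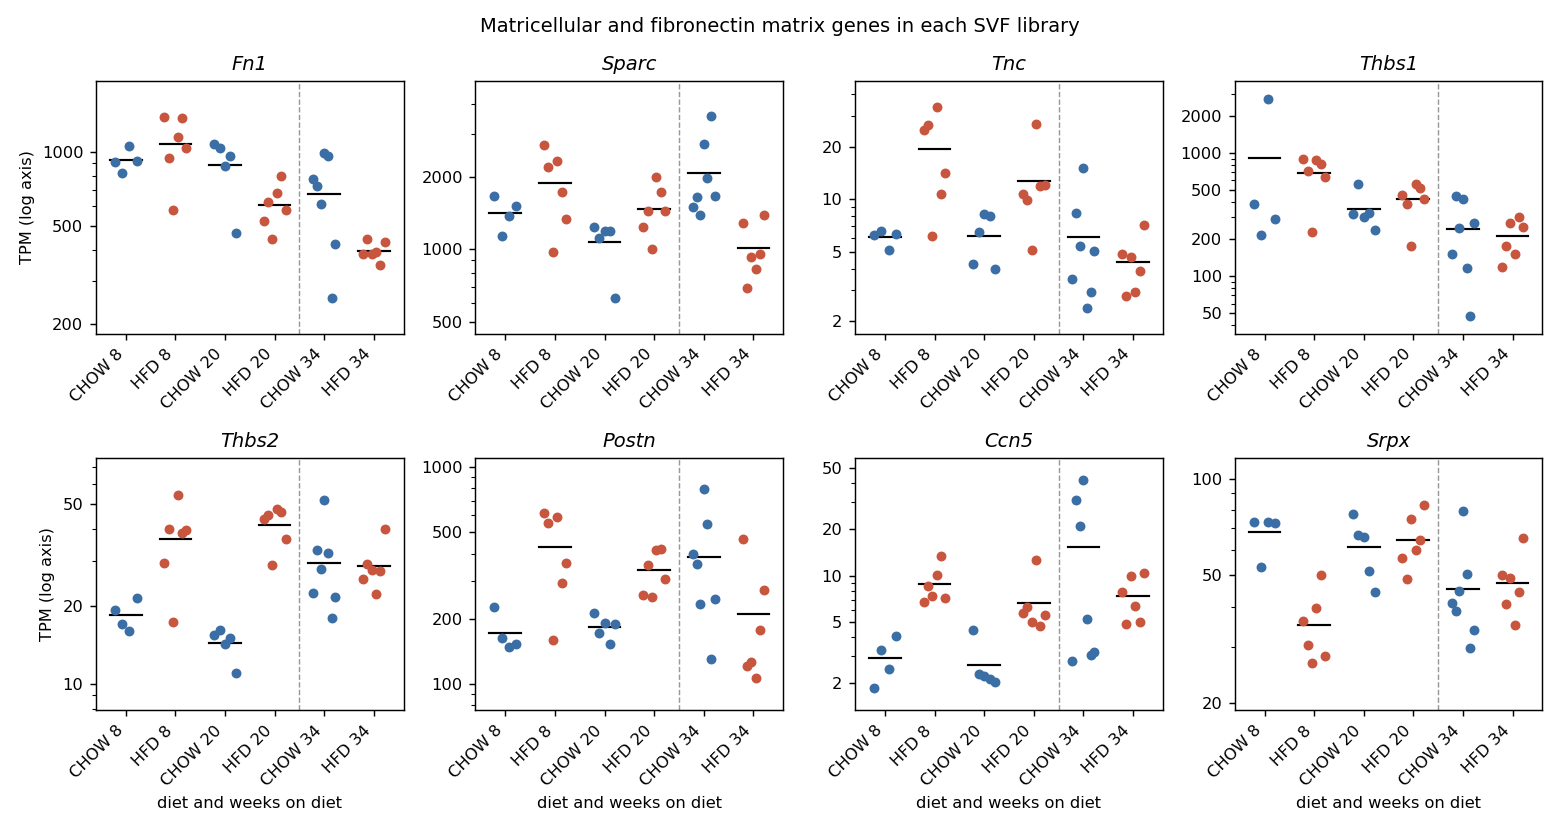
TPM of each of the 8 genes (log axis) in every library, by diet (blue CHOW, red HFD) and weeks on the diet; each point is a library, black bars are group means, and the dashed line divides the 8 and 20 week table from the 34 week table, which were not tested against each other. Ccn5 and Srpx at 8 weeks, Thbs2, Postn and Ccn5 at 20 weeks and Sparc at 34 weeks are the panels in which the diets do not overlap. Among all genes HFD was apart and higher for 0.339% at 8 weeks and 5.5% at 20 weeks. It was apart and lower for 1.77% at 8 weeks and 0.2% at 34 weeks.

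The first question was which of the 8 genes differed between HFD and CHOW at each time. Thbs2, Postn and Ccn5 rose on HFD at 20 weeks, by 2.74-fold, 1.79-fold and 2.06-fold on the log2(TPM + 1) scale. In each the lowest HFD library was above the highest CHOW library, a split found for 5.5% of all genes. With 1 library left out the Postn call held in 4 of 11 fits, and those of Thbs2 and Ccn5 in all 11. No member was called lower at that time, though Fn1, at -0.51 on the log2 scale, was called under 3 other settings. At 8 weeks Thbs2, Postn and Ccn5 were 1.84-fold, 2.27-fold and 2.51-fold higher on HFD without passing the test. Srpx at 8 weeks was below every CHOW library in every HFD library, a split found for 1.77% of all genes, also without passing. By 34 weeks Sparc was lower in all 6 HFD libraries than in all 7 CHOW libraries, as were 0.2% of all genes, again without passing. In bulk samples such as these, fewer cells of a type and less RNA per cell cannot be told apart.

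Differences were tested with limma on log2(TPM + 1) across all genes of a table, with Benjamini-Hochberg adjustment and a threshold of 0.05. At 8 weeks 0 of the 8 members passed, where 0.0238% of all tested genes did. At an unadjusted p under 0.05 there were 5 members (Tnc, Thbs2, Postn, Ccn5 and Srpx), against 9.7% of all genes. At 20 weeks 3 of 8 were called higher and 0 lower, against 9.32% of all genes called higher and 4.99% called lower, and 5 had an unadjusted p under 0.05, against 30.5% of all genes. Called genes split into 1566 higher and 839 lower at 20 weeks, into 1610 and 1902 after quantile normalization, which moved the median of all genes from 0.08 to -0.06, and into 4147 and 435 relative to the progenitor list, which moved it to 0.35. That last scaling, chosen after the data were seen, sets each library against the mean of 10 progenitor and fibroblast markers. At 34 weeks 0 of 8 passed, against 0.243% of all genes, and 2 (Fn1 and Sparc) had an unadjusted p under 0.05, against 13.2%. The median difference over the 8 members was 0.61, 0.65 and -0.30 on the log2 scale at 8, 20 and 34 weeks, beside -0.08, 0.08 and 0.10 over all genes tested.

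**Figure D2:**
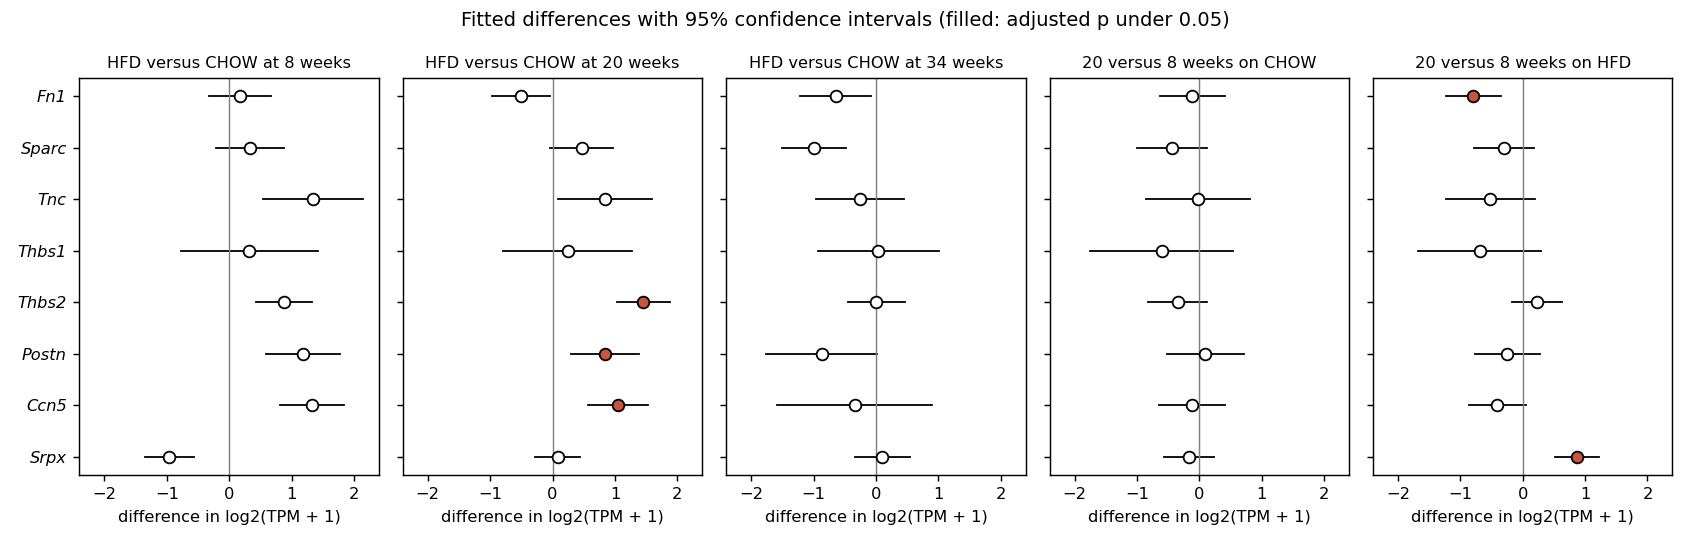
Fitted differences in log2(TPM + 1) for the 8 genes (rows) in 5 comparisons (panels), with 95% confidence intervals as bars and filled circles where the adjusted p is under 0.05. Filled circles stand at Thbs2, Postn and Ccn5 for diet at 20 weeks and at Fn1 and Srpx for time on HFD.

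Fn1 encodes fibronectin, the fibrillar scaffold protein that integrins and collagens bind. At 8 weeks it stood at 909, 817, 1053 and 913 TPM in the CHOW libraries and ran from 579 to 1382 TPM (median 1090.2) on HFD. At 20 weeks it stood at 1075, 1039.7, 878, 965 and 467 TPM on CHOW and from 443 to 798 TPM (median 605) on HFD. The diets overlapped at both times, with 4 of 5 CHOW libraries at 20 weeks above every HFD library and replicate 5, the library with much erythroid RNA, below 5 of the 6. The difference was 0.17 (SE 0.24, adjusted p = 0.896 by limma) at 8 weeks and -0.51 (SE 0.22, adjusted p = 0.132 by limma) at 20 weeks. At 20 weeks it passed at -0.57 with median-ratio scaling (adjusted p = 0.0247, limma), at -0.59 after quantile normalization (adjusted p = 0.0269, limma) and at -0.59 with sample quality weights (adjusted p = 0.0123, limma). Without that CHOW library the 20 week difference was -0.72 (adjusted p = 0.0342, limma). At 34 weeks Fn1 ran from 256 to 987 TPM (median 725) on CHOW and from 347 to 442 TPM (median 389) on HFD. The HFD libraries lay close together, 5 of 7 CHOW libraries were above all of them, and CHOW replicate 6, with the most adipocyte RNA, was below all of them. The 34 week difference was -0.65 (SE 0.27, adjusted p = 0.327 by limma), and -0.95 (adjusted p = 0.122, limma) without the 3 libraries of high adipocyte RNA.

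Sparc encodes a collagen-binding glycoprotein that takes part in collagen assembly and in basement membranes, and it was the most abundant of the 8. Its levels at 8 weeks were 1659.5, 1130.5, 1373 and 1509 TPM on CHOW and from 971 to 2714 TPM (median 1955) on HFD. At 20 weeks they were 1235, 1118, 1192, 1188 and 625 TPM on CHOW and from 1002 to 1993 TPM (median 1442) on HFD. In both pairs of groups 4 of the 6 HFD libraries were above every CHOW library, and the rest overlapped. The difference was 0.34 (SE 0.26, adjusted p = 0.730 by limma) at 8 weeks and 0.47 (SE 0.24, adjusted p = 0.203 by limma) at 20 weeks. At 34 weeks Sparc ran from 1391 to 3562 TPM (median 1661) on CHOW and from 692 to 1389.8 TPM (median 939) on HFD. The lowest CHOW library was barely above the highest HFD library, and groups that did not overlap with HFD lower were found for 0.2% of all genes. The difference was -0.99 (SE 0.24, adjusted p = 0.126 by limma). The highest Sparc, 3562 TPM, was in CHOW replicate 6, whose adipocyte markers summed to 18412 TPM. All 10 genes of the adipocyte list reached 1 TPM at 34 weeks, 8 of them in every library, and the list summed to at most 529 TPM on HFD. Without the 3 libraries of high adipocyte RNA the difference was -0.83 (adjusted p = 0.291, limma), and the part of adipocyte RNA in it was not tested further.

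Postn encodes periostin, a fasciclin-domain protein that binds fibronectin, tenascin C and collagen and is known from fibroblasts in repair. At 8 weeks it stood at 226, 164, 148 and 153 TPM on CHOW and from 160 to 612 TPM (median 457) on HFD. HFD replicates 1, 2 and 4 were highest, and replicate 3, the library with seminal vesicle RNA, was within the CHOW range. The difference was 1.18 (SE 0.28, adjusted p = 0.134 by limma), and without replicate 3 it was 1.44 (adjusted p = 0.00952, limma). At 20 weeks Postn stood at 212, 172, 191, 153 and 189 TPM on CHOW and from 252 to 419 TPM (median 329.9) on HFD. All 6 HFD libraries were above all 5 CHOW libraries, a split found with HFD higher for 5.5% of all genes. The difference was 0.84 (SE 0.27, adjusted p = 0.0397 by limma). Leaving out any 1 of 7 libraries (CHOW replicates 2, 3, 4 or 5 or HFD replicates 2, 4 or 5) ended this call, with adjusted p from 0.0605 to 0.0985 by limma and differences from 0.77 to 0.86. With no filter on low values the adjusted p was 0.0703 by limma. Without the seminal vesicle library and the 3 germ cell libraries together the difference was 0.73 (adjusted p = 0.0502, limma). At 34 weeks Postn ran from 131 to 789 TPM (median 359.6) on CHOW and from 106 to 466 TPM (median 153) on HFD, overlapping widely, and the difference was -0.87 (SE 0.42, adjusted p = 0.384 by limma).

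Tnc encodes tenascin C, a large hexameric protein that loosens adhesion to fibronectin and is little expressed in resting adult tissue. It stood at 6.19, 6.56, 5.14 and 6.31 TPM on CHOW at 8 weeks and ran from 6.14 to 33.9 TPM (median 19.5) on HFD. The CHOW libraries were tightly grouped, and 5 of 6 HFD libraries were above all of them. HFD replicates 1, 2 and 4 held 25.0, 26.5 and 33.9 TPM and replicates 3, 5 and 6 6.14, 10.7 and 14.1 TPM. The difference was 1.34 (SE 0.39, adjusted p = 0.220 by limma), and without replicate 3 it was 1.60 (adjusted p = 0.0808, limma). With the 3 germ cell libraries of 20 weeks also out of the fit it was 1.60 (adjusted p = 0.0297, limma). At 20 weeks Tnc stood at 4.24, 6.49, 8.21, 8.00 and 3.96 TPM on CHOW and from 5.14 to 27.0 TPM (median 11.3) on HFD. Here too 5 of 6 HFD libraries were above every CHOW library, with replicate 4 far above the rest. The difference was 0.84 (SE 0.36, adjusted p = 0.121 by limma), and 0.60 (adjusted p = 0.261, limma) without that library. At 34 weeks Tnc ran from 2.37 to 15.1 TPM (median 5.05) on CHOW and from 2.79 to 7.08 TPM (median 4.28) on HFD, with a difference of -0.25 (SE 0.33, adjusted p = 0.746 by limma).

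Markers of mural and smooth muscle cells moved with Tnc and Postn. All 10 genes of the list (Rgs5, Cspg4, Myh11, Acta2, Tagln, Cnn1, Notch3, Des, Kcnj8 and Abcc9) reached 1 TPM in the 8 and 20 week table, 8 of them in every library. In HFD replicates 1, 2 and 4 at 8 weeks the list summed to 549.9, 492 and 418 TPM, and in replicates 3, 5 and 6 to 117, 221 and 244 TPM. The 4 CHOW libraries at that time summed to between 91.3 and 315 TPM. Replicates 5 and 6 on HFD had mural sums inside the CHOW range and Tnc above every CHOW library, and replicate 3 had both inside the CHOW range. Endothelial markers were also high in replicates 1, 2 and 4, at 2696, 2556 and 2088 TPM, against 996 to 1228 TPM in the other HFD libraries and 378 to 2085 TPM on CHOW. At 20 weeks HFD replicate 4, with the highest Tnc, had the highest mural and endothelial sums of that time, 293 and 1895 TPM. Over the 21 libraries of 8 and 20 weeks Pearson's r with the mural list was 0.74 for Tnc, 0.66 for Postn and also 0.66 for Sparc. With group means taken out it was 0.79, 0.78 and 0.65. These are descriptions over libraries that share groups. The part of these cells in the Tnc, Postn and Sparc values was not tested.

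**Figure D3:**
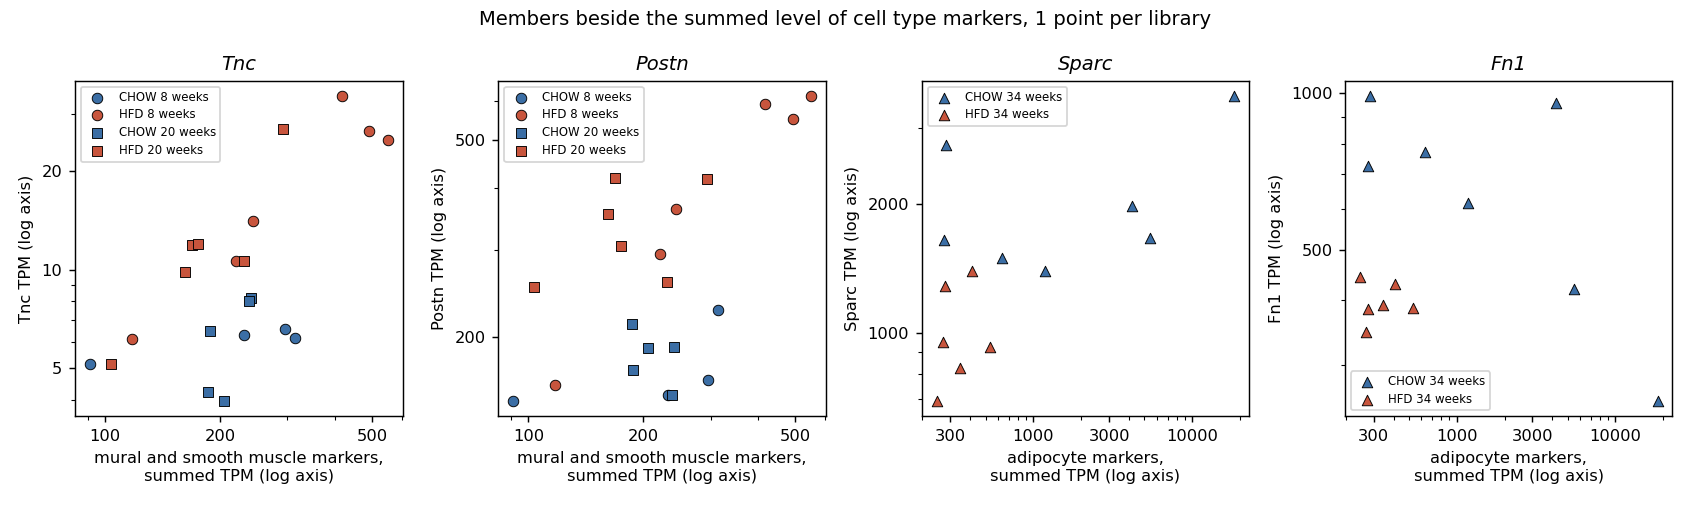
TPM of Tnc and Postn against the summed TPM of 10 mural and smooth muscle markers in the 21 libraries of 8 and 20 weeks, and of Sparc and Fn1 against the summed TPM of 10 adipocyte markers in the 13 libraries of 34 weeks (all axes log; blue CHOW, red HFD; each point is a library). The 3 HFD libraries of 8 weeks with mural sums of 418 TPM or more have the highest Postn, and the CHOW library with 18412 TPM of adipocyte markers has the highest Sparc and the lowest Fn1.

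Thbs1 encodes thrombospondin 1, which platelets, macrophages and stromal cells release and which can activate latent TGF-beta. At 8 weeks it stood at 386, 215, 2751 and 293 TPM on CHOW and ran from 227 to 894 TPM (median 761) on HFD. CHOW replicate 3 was above every other library of the series, while the other 3 CHOW libraries were below 5 of 6 HFD libraries. The difference was 0.32 (SE 0.53, adjusted p = 0.919 by limma), and without CHOW replicate 3 it was 1.13 (adjusted p = 0.329, limma). That library also had the lowest endothelial and mural sums of its group, 378 and 91.3 TPM, and the highest neutrophil sum, 2030.3 TPM. Its platelet and megakaryocyte markers summed to 571 TPM, inside the CHOW range of 494 to 663 TPM, and Gp9, a platelet surface gene, was at 3.09 TPM or less in every library. The part of these cells in the Thbs1 value was not tested. At 20 weeks Thbs1 stood at 321, 558, 301, 325 and 238 TPM on CHOW and from 175 to 561 TPM (median 441) on HFD, with a difference of 0.24 (SE 0.50, adjusted p = 0.786 by limma). At 34 weeks it ran from 47.8 to 445 TPM (median 245) on CHOW and from 118 to 301 TPM (median 213) on HFD, with a difference of 0.04 (SE 0.45, adjusted p = 0.974 by limma). The intervals at all 3 times were the widest or next to widest of the 8 genes, -0.79 to 1.27 at 20 weeks.

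Thbs2 encodes thrombospondin 2, the paralog made by fibroblasts, which binds collagen and matrix metalloproteinases. It stood at 19.3, 17, 16.1 and 21.5 TPM on CHOW at 8 weeks and ran from 17.4 to 54.2 TPM (median 39.2) on HFD. Of the 6 HFD libraries 5 were above every CHOW library, and replicate 3, with seminal vesicle RNA, stood inside the CHOW range at 17.4 TPM. The difference was 0.88 (SE 0.22, adjusted p = 0.150 by limma), and 1.07 (adjusted p = 0.0113, limma) without replicate 3. At 20 weeks Thbs2 stood at 15.4, 16.2, 14.2, 15 and 11 TPM on CHOW and from 29.0 to 47.7 TPM (median 44.5) on HFD. The lowest HFD library was well above the highest CHOW library, and the difference was 1.46 (SE 0.21, adjusted p = 0.000149 by limma), the largest among the 8 members in any comparison that passed. Without HFD replicates 3, 4 and 5, which held germ cell RNA, and the seminal vesicle library of 8 weeks it was 1.48 (adjusted p = 0.000118, limma). Relative to the progenitor list Thbs2 was higher by 1.73 (adjusted p = 3.08e-05, limma). Mural sums in 5 of the 6 HFD libraries at 20 weeks were below the highest CHOW sum of 241 TPM. Over the 21 libraries of 8 and 20 weeks r of Thbs2 with the mural list was 0.37, and 0.56 with group means taken out. The part of mural and progenitor cells in the Thbs2 values was not tested. At 34 weeks it ran from 18.1 to 51.7 TPM (median 28.0) on CHOW and from 22.4 to 40.1 TPM (median 27.6) on HFD, with a difference of 0.01 (SE 0.21, adjusted p = 0.989 by limma). The difference at 20 weeks was 0.57 larger on the log2 scale than that at 8 weeks, and this interaction did not pass.

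Ccn5 encodes a CCN family protein that lacks the C-terminal domain of its relatives and is secreted by smooth muscle and progenitor cells. It was the least abundant of the 8 at 8 and 20 weeks. It stood at 1.87, 3.27, 2.49 and 4.08 TPM on CHOW at 8 weeks and ran from 6.76 to 13.4 TPM (median 7.96) on HFD. Every HFD library was above every CHOW library, a split found with HFD higher for 0.339% of all genes. The difference was 1.33 (SE 0.25, adjusted p = 0.0632 by limma), and 1.37 (adjusted p = 0.0445, limma) without HFD replicate 3. At 20 weeks Ccn5 stood at 4.41, 2.3, 2.24, 2.12 and 2.04 TPM on CHOW and from 4.69 to 12.7 TPM (median 5.63) on HFD. The groups again did not overlap, though CHOW replicate 1 came close to the lowest HFD library, and the difference was 1.04 (SE 0.23, adjusted p = 0.00550 by limma). It was 0.86 (adjusted p = 0.0101, limma) without HFD replicate 4, the highest library. At 34 weeks the 7 CHOW libraries stood at separate levels, with 31.2, 21 and 41.8 TPM in replicates 2, 3 and 4 and from 2.79 to 5.25 TPM in the other 4. The 6 HFD libraries lay between 4.87 and 10.4 TPM, below the first set and mostly above the second. The difference was -0.34 (SE 0.58, adjusted p = 0.808 by limma), and -1.18 (adjusted p = 0.541, limma) without the 3 libraries of high adipocyte RNA, which left out 3 of those 4.

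Srpx encodes a secreted sushi repeat protein of fibroblasts, and it was the 1 member with a negative difference at 8 weeks. It stood at 73.5, 53.0, 73.4 and 73.0 TPM on CHOW and ran from 26.7 to 50.0 TPM (median 33.2) on HFD. All 6 HFD libraries were below all 4 CHOW libraries, a split found with HFD lower for 1.77% of all genes. The difference was -0.96 (SE 0.19, adjusted p = 0.0689 by limma), and without HFD replicate 5, the highest HFD library, it was -1.06 (adjusted p = 0.0132, limma). At 20 weeks Srpx stood at 77.9, 66.8, 65.9, 51.5 and 44.6 TPM on CHOW and from 48.8 to 83.0 TPM (median 62.3) on HFD, overlapping, with a difference of 0.08 (SE 0.18, adjusted p = 0.801 by limma). At 34 weeks it ran from 29.8 to 79.3 TPM (median 41.0) on CHOW and from 35.1 to 65.2 TPM (median 46.7) on HFD, with a difference of 0.10 (SE 0.20, adjusted p = 0.842 by limma). The difference at 20 weeks minus that at 8 weeks was 1.04 (SE 0.26, adjusted p = 0.10 by limma). No member passed this interaction test, where 0.297% of all genes did, and at an unadjusted p under 0.05 Srpx was the 1 member, against 13.8% of all genes.

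The next question was whether the genes moved between 8 and 20 weeks on the same diet. On HFD, Srpx rose and Fn1 fell, 1 of 8 members in each direction, where 6.12% of all genes were called higher and 2.65% lower. The split of 1029 genes higher and 446 lower became 1118 and 1627 after quantile normalization, 814 and 1175 with hemoglobin, germ cell and seminal vesicle genes removed, and 6051 and 210 relative to the progenitor list. Marker lists moved over the same time on HFD. All 6 mast cell markers rose, with list sums of 113 to 258 TPM at 8 weeks and 573 to 2732 TPM at 20 weeks, and 5 of 10 macrophage markers rose. All 5 erythroid markers fell, with sums of 33175 to 267887 TPM at 8 weeks and 12622 to 30448 TPM at 20 weeks, and 6 of 9 tested adipocyte markers fell. Of 10 progenitor and fibroblast markers 2 fell and 0 rose, and of 10 mesothelial markers 2 fell and 0 rose. Over the 21 libraries of 8 and 20 weeks r with the mast cell list was -0.64 for Fn1 and 0.58 for Srpx, and -0.10 and 0.12 with group means taken out. With the progenitor and fibroblast list r was 0.73 for Fn1 and -0.14 for Srpx, and 0.63 and 0.27 with group means taken out. The part of these cells in the Fn1 and Srpx values was not tested. Srpx went from a mean of 35.1 ± 8.80 to 64.6 ± 12.5 TPM, with a difference of 0.87 (SE 0.17, adjusted p = 0.00236 by limma), and 5 of 6 libraries at 20 weeks were above every library at 8 weeks. Fn1 went from a mean of 1075 ± 300 to 608 ± 124 TPM, with a difference of -0.79 (SE 0.21, adjusted p = 0.0264 by limma), and 5 of 6 libraries at 8 weeks were above every library at 20 weeks. The Fn1 call was lost without replicate 3 at 20 weeks or without replicates 1 or 5 at 8 weeks, with adjusted p from 0.0626 to 0.0650 by limma and differences from -0.71 to -0.70. Relative to the progenitor list it was -0.43 (adjusted p = 0.0627, limma). Srpx kept its call when any single library was left out, and missed it at 0.75 (adjusted p = 0.0603, limma) without the 4 libraries of seminal vesicle or germ cell RNA together. The other 6 members had differences from -0.69 for Thbs1 to 0.23 for Thbs2, with adjusted p from 0.241 to 0.577 by limma, so that 2 of 8 had an unadjusted p under 0.05, against 27.2% of all genes. On CHOW 0 of 8 members passed and 0 had an unadjusted p under 0.05 by limma, against 0.613% and 12.5% of all genes. Their differences ran from -0.60 for Thbs1, which was at 0.21 without replicate 3 of 8 weeks, to 0.10 for Postn.

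Ordering the 4 groups of 8 and 20 weeks by mean level put both HFD groups above both CHOW groups for Sparc, Tnc, Thbs2, Postn and Ccn5. For Thbs2 the order was HFD at 20 weeks (41.4 ± 7.25 TPM), HFD at 8 weeks (36.6 ± 12.3), CHOW at 8 weeks (18.5 ± 2.45) and CHOW at 20 weeks (14.4 ± 2.01). The ranges of neighbours overlapped within the HFD groups and barely overlapped within the CHOW groups. Between the diets, HFD at 8 weeks (17.4 to 54.2 TPM) overlapped CHOW at 8 weeks (16.1 to 21.5 TPM). For Postn and Tnc, HFD at 8 weeks came first, at 428 ± 184 and 19.4 ± 10.7 TPM, then HFD at 20 weeks, at 334 ± 74.6 and 12.8 ± 7.41 TPM. The CHOW groups of these genes differed by less than 1 SD, at 173 ± 36.3 and 183 ± 22.2 TPM for Postn and 6.05 ± 0.62 and 6.18 ± 2.01 TPM for Tnc. Srpx had 3 groups at like levels, from 61.3 ± 13.3 to 68.2 ± 10.1 TPM, and HFD at 8 weeks alone at 35.1 ± 8.80 TPM. Fn1 had 3 groups from 885 ± 246 to 1075 ± 300 TPM and HFD at 20 weeks below them at 608 ± 124 TPM. Sparc ran from 1877 ± 653 TPM on HFD at 8 weeks to 1072 ± 253 TPM on CHOW at 20 weeks, and Ccn5 from 8.89 ± 2.53 to 2.62 ± 1.00 TPM between the same groups, with all neighbours in the order overlapping for Sparc and only the HFD and CHOW groups apart for Ccn5. Thbs1 had its highest group mean on CHOW at 8 weeks, at 911 ± 1228 TPM with replicate 3 far above the rest, and its medians were 339 TPM there, 761 TPM on HFD at 8 weeks, 321 TPM on CHOW at 20 weeks and 441 TPM on HFD at 20 weeks.

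Among themselves the 8 genes were only partly coordinated. Over the 21 libraries of 8 and 20 weeks the median Pearson's r of log2(TPM + 1) over the 28 pairs was 0.41, from -0.45 to 0.88, and 13 pairs were above 0.5. Postn and Tnc had the highest r, at 0.88, followed by Postn with Thbs2 and Sparc with Tnc, both at 0.82. Srpx had a negative r with all 7 others, from -0.45 with Tnc to -0.10 with Thbs1, and with group means taken out a positive r with all 7, from 0.03 with Tnc to 0.54 with Fn1. Over the 13 libraries of 34 weeks the median was 0.53, from -0.25 to 0.90, and the highest pair was Thbs2 with Srpx at 0.90. At 34 weeks Srpx had a positive r with all 7 others, from 0.08 with Sparc upwards. Libraries of a group share their diet and time, and the 8 genes of a library share its cell mixture, so these are descriptions. With group means taken out, the median r was 0.42 over the 21 libraries and 0.57 over the 13.

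**Figure D4:**
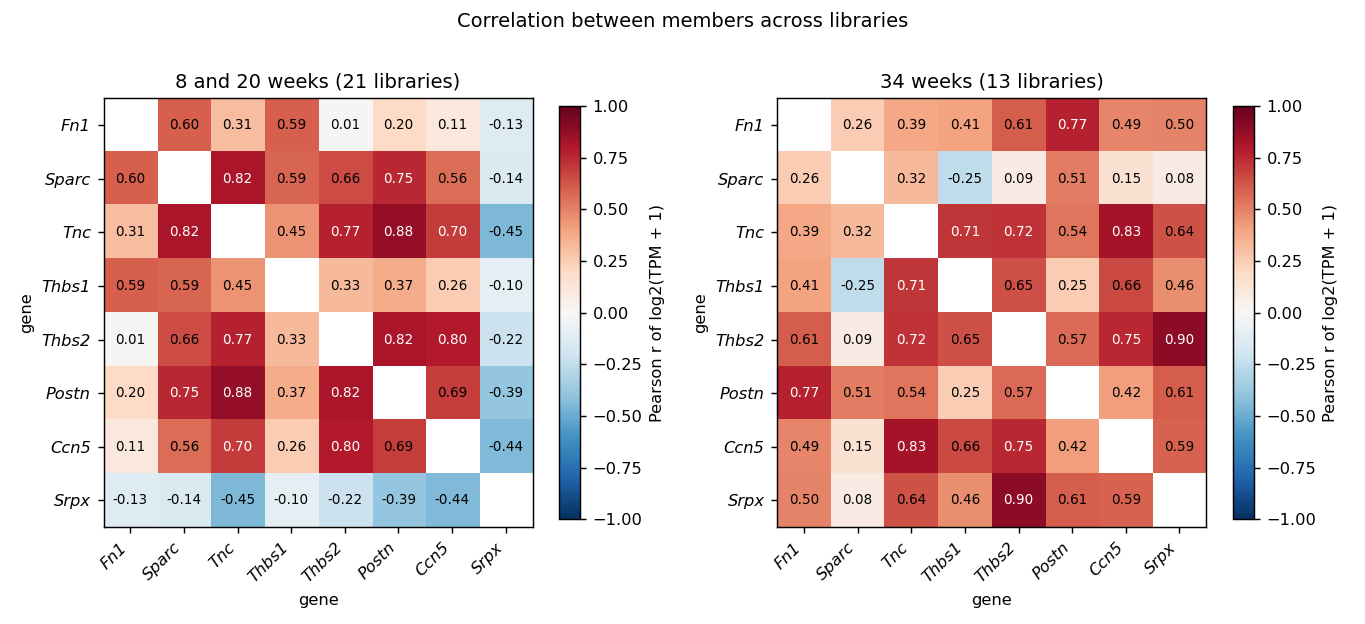
Pearson's r of log2(TPM + 1) between each pair of the 8 genes (rows and columns) across the 21 libraries of 8 and 20 weeks (left) and the 13 libraries of 34 weeks (right), red positive and blue negative. The Srpx row is negative throughout on the left, down to -0.45, and positive throughout on the right, up to 0.90, while with group means taken out the values on the left are also positive, from 0.03 to 0.54.

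The genes whose levels followed each member most closely were looked for among 10650 genes in the earlier table and 10305 in the later one. Postn ran with collagen genes, Col8a1 and Col6a2 (r of 0.89 and 0.88) at 8 and 20 weeks and Col3a1 (0.99) at 34 weeks. Tnc ran with Col8a1 in both tables (0.90 and 0.91) and with Ccn1 (0.90) in the first. Sparc ran with the fibrillar collagen genes Col5a1 and Col5a2 (0.94 and 0.92) in the first table and with Srpx2 (0.96) at 34 weeks. Fn1 ran with Col14a1 in both (0.90 and 0.95), beside Lsp1 (0.90) and Fstl1 (0.92). Thbs1 followed Il11, Star and Got1 (0.92, 0.92 and 0.91) and, at 34 weeks, Tent4a, Slc7a1 and H3f3b (0.94, 0.92 and 0.91). Thbs2 followed Tnfsf12, Angpt2 and Mical2 (0.88, 0.87 and 0.87) and then Bmpr2, Gpr153 and Pdgfrb (0.93, 0.92 and 0.92). Srpx followed Bmper, Sfrp1 and Agt (0.93, 0.89 and 0.86) and then Col6a3 (0.91). Ccn5 had the weakest partners at 8 and 20 weeks, Thbs2 (0.80), Hmcn2 (0.79) and Tstd3 (0.78), with r to Thbs2 of 0.40 once group means were taken out.

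Genes of the surrounding pathway were counted from lists compiled for this purpose, to be read beside the shares of all genes called, 9.32% higher and 4.99% lower at 20 weeks and 6.12% higher and 2.65% lower for time on HFD. At 8 weeks, at 34 weeks and for the interaction 0 genes passed in all 8 lists (paralogs, other matricellular genes, receptors, fibrillar collagens, elastic fibre and crosslinking genes, small leucine-rich proteoglycans, TGF-beta genes, and SRF, MRTF and YAP factors). At 20 weeks the paralogs of the members split, with 1 of 7 tested genes higher and 1 lower on HFD. Comp, the thrombospondin of cartilage, was higher by 1.96 (adjusted p = 0.0321, limma), from a mean of 0.293 ± 0.223 TPM on CHOW to 8.91 ± 13.3 TPM with one HFD library at 34.8 TPM. Its highest CHOW values were 0.913 TPM at 8 weeks and 0.550 TPM at 20 weeks. Comp thus passed the filter of 1 TPM only through HFD libraries, so this call is not taken as support for a rise. Ccn3, a growth-restraining CCN protein, fell, with a difference of -1.57 (adjusted p = 0.00276, limma) and means of 23.1 ± 11.7 and 6.83 ± 3.01 TPM. Of 11 other matricellular genes 1 was called higher and 3 lower, with Spock3 among the 3. Spp1 (osteopontin), which macrophages make in obese fat, rose by 3.44 (adjusted p = 0.00606, limma), from 70.1 ± 124 to 262 ± 95.1 TPM. The groups overlapped, at 5.68 to 290 TPM on CHOW and 146 to 419 TPM on HFD. The testican genes Spock2 and Spock3 were lower by 1.24 and 0.99 on the log2 scale. Spock3 was near the floor, with a mean of 1.89 ± 0.77 TPM on CHOW and at most 0.863 TPM on HFD. Between these groups only CHOW libraries reached 1 TPM, so the Spock3 call is not taken as support for a fall.

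Receptors for the 8 proteins were higher on HFD at 20 weeks in 3 of 13 tested genes and lower in 0. Itgb5 rose by 1.09 (adjusted p = 0.000250, limma) and Itgav, its alpha partner in an integrin that binds fibronectin, periostin and tenascin, rose by 0.94 (adjusted p = 0.0350, limma). Between 8 and 20 weeks on HFD 5 of the 13 rose, among them the syndecan gene Sdc4 by 1.91 (adjusted p = 9.18e-05, limma) and Itga5, the alpha chain of the main fibronectin receptor, by 1.52 (adjusted p = 0.000965, limma). Sdc4 also rose on CHOW over that time, by 1.52 (adjusted p = 0.0253, limma), the only listed gene that passed there. Itga5 was higher on CHOW too without passing, at 319 to 457 TPM at 20 weeks against 180 to 224 TPM at 8 weeks. Macrophage markers (10 of 10 genes at 1 TPM or more in every library) were also higher in the HFD libraries of 20 weeks, 9463 to 16798 TPM against 5277 to 12622 TPM on CHOW with overlap, and their part in the receptor values was not tested.

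The fibrillar collagen genes did not follow Thbs2, Postn and Ccn5 past the threshold at 20 weeks. Of 6 tested 0 passed by limma, with a median difference of 0.53 on the log2 scale, beside 0.65 for the 8 members and 0.08 for all genes. Elastic fibre and crosslinking genes moved both ways, 3 of 20 higher and 3 lower. The microfibril gene Mfap4 rose by 1.35 (adjusted p = 0.0106, limma) and Pcolce, an enhancer of procollagen processing, by 0.94 (adjusted p = 0.00721, limma). Efemp1 (fibulin 3) and the lysyl oxidase gene Loxl4 fell, with differences of -1.26 (adjusted p = 0.00104, limma) and -1.08 (adjusted p = 0.00243, limma). The small leucine-rich proteoglycans also split, 2 of 7 higher and 3 lower, with Bgn at 0.99 (adjusted p = 0.00928, limma) and Lum at 0.89 (adjusted p = 0.0117, limma) against Fmod at -1.57 (adjusted p = 0.0114, limma) and Ogn at -0.69 (adjusted p = 0.0357, limma). Mesothelial markers (10 of 10 genes reached 1 TPM) were lower on HFD at that time, 71 to 223 TPM against 228 to 770 TPM on CHOW with no overlap, and their part in the genes that fell was not tested. Among 10 TGF-beta genes the receptor gene Tgfbr1 rose by 1.21 (adjusted p = 0.00144, limma) and the other 9 did not pass. Of 9 SRF, MRTF and YAP factors 0 rose and 2 fell, Tead4 by 0.87 and Tead1 by 0.74 on the log2 scale.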

How the data were processed

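Stromal vascular cells of visceral fat were sequenced with a stranded mRNA kit, and the authors deposited TPM values made with Salmon (mouse build mm10, gencode M10) after trimming with Trimmomatic, in 1 table for 8 and 20 weeks and 1 for 34 weeks. TPM keeps no read totals, so the depth of each library is unknown and no counting interval was given. The count test of the study's methods (DESeq2) needs counts and was not run. Ensembl gene IDs were matched to gencode M21 symbols, which named 31791 of 32098 genes in each table. Groups came from the labels.

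Each table was fitted separately with limma 3.58.1 in R 4.3.3 on log2(TPM + 1), with group means, a mean-variance trend and Benjamini-Hochberg adjustment over all tested genes. Genes with at least 1 TPM in at least 4 libraries (16808, earlier table) or 6 libraries (13982, later table) were tested, and the 8 and 20 week groups shared 1 fit. The fit was tested on simulated data in which 200 genes were changed, and at 20 weeks it called 75% of those changed 2-fold and 98% of those changed 4-fold, against 47% and 93% for the interaction. The changed genes were drawn from those with a mean log2(TPM + 1) above 4, a level that Tnc and Ccn5 did not reach. Noise was drawn separately for each gene, without a shared cell mixture, so these shares may not hold for the data. Of the genes called, 3.9% at 20 weeks, 8.5% at 34 weeks and 4.1% for the interaction were unchanged ones. No libraries of a group were identical, and their correlations ran from 0.821 to 0.973. The 8 genes and all lists were chosen with earlier results of these data known. In each list and comparison, at most 2 genes called higher and 2 called lower, those of largest change, were named, and for each member the 3 best correlated genes among those with a mean of at least 5 TPM. Alternatives were another pseudocount (0.1 TPM), other filters, other scalings, quality weights, a replicate block, fits on fewer groups and libraries left out. Scaling to the 10 progenitor and fibroblast markers was added after the data were seen.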

Additional observations from a re-analysis of the deposited data

Results flagged for a closer look

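Of 48 sets of 4 to 7 libraries (8 genes in 6 groups), 7 held a library that stood far from the rest by Dixon's criterion on log2(TPM + 1), which chance alone does in about 1 in 20 sets. In replicate 5 of CHOW at 20 weeks Fn1 was low at 467 TPM and Sparc low at 625 TPM, and that library held 130027 TPM of erythroid markers. Thbs1 was low in replicate 3 of HFD at 8 weeks, at 227 TPM, the library with seminal vesicle RNA, and in replicate 3 of HFD at 20 weeks, at 175 TPM, a library with germ cell RNA. Ccn5 was high in replicate 1 of CHOW at 20 weeks, at 4.41 TPM, and in replicate 4 of HFD at 20 weeks, at 12.7 TPM. Srpx was low in replicate 2 of CHOW at 8 weeks, at 53.0 TPM. The Thbs1 value of 2751 TPM in replicate 3 of CHOW at 8 weeks did not pass this criterion.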

How the results depend on the processing

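Thbs2 and Ccn5 were called at 20 weeks under all 11 alternatives and without any single library of the 11. Relative to the progenitor list 5 members were called there (Sparc and Tnc added), and between 2 and 3 with 1 library left out. Median-ratio scaling, quantile normalization and quality weights added Fn1 as lower (-0.57, -0.59 and -0.59), and Postn was lost with no filter and without the 4 libraries of seminal vesicle or germ cell RNA. At 8 weeks, where 0 passed, the count was 3 with median-ratio scaling, 2 with quantile normalization, 1 with hemoglobin, germ cell and seminal vesicle genes removed, 5 with sample quality weights, 2 relative to the progenitor list, 4 without those 4 libraries, and 0 to 3 with 1 library left out. At 34 weeks quality weights called 2 (Fn1 and Sparc). For time on HFD 1 member was called instead of 2 with no filter, with only the compared groups in the fit, without those 4 libraries, and 1 to 2 with 1 library left out. Sparc was added as lower by quantile normalization (-0.58) and quality weights (-0.60), and relative to the progenitor list Thbs2 was added (0.58) and Fn1 lost. The interaction gave 2 with quality weights and 1 relative to the progenitor list. For these moves the cause was not tested.

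Directions turned for some members, in each case without passing the threshold before or after. At 20 weeks Srpx was at -0.0097 after quantile normalization. At 34 weeks Thbs1 was at -0.072 by median ratios, -0.022 with quality weights, -0.073 relative to the progenitor list and -0.53 without the 3 libraries of high adipocyte RNA, and Thbs2, in the same order with quantile normalization second, at -0.10, -0.071, -0.018, -0.11 and -0.18. Srpx was at -0.011 by median ratios, -0.013 relative to the progenitor list and -0.066 without those 3 libraries. For time on CHOW Tnc was at 0.066, 0.076 and 0.067 by median ratios, quantiles and weights. Relative to the progenitor list, time on HFD gave Sparc 0.053 and Postn 0.11, and the interaction gave Thbs1 0.32, Postn 0.063 and Ccn5 0.12. The Sparc interaction was -0.043 by median ratios, -0.039 by quantiles, -0.013 with the named genes removed, -0.22 with weights and -0.11 without the 4 libraries. With 1 library left out, ranges that crossed 0 were -0.090 to 1.13 for Thbs1 at 8 weeks, -0.027 to 0.17 for Srpx at 20 weeks, and at 34 weeks -0.29 to 0.24 for Thbs1, -0.094 to 0.15 for Thbs2 and -0.58 to 0.0012 for Ccn5. For time on CHOW they were -0.20 to 0.10 for Fn1, -0.12 to 0.10 for Tnc, -1.02 to 0.21 for Thbs1 and -0.27 to 0.014 for Ccn5, and for the interaction -0.053 to 0.25 for Sparc and -0.89 to 0.33 for Thbs1.

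Equal replicate numbers were not taken as pairing the libraries, since the labels name nothing shared. In no comparison made did every same-numbered pair have deviations correlated above 0.1 (16 of 34 pairs in all, median 0.077 against -0.025 for other pairs). Between HFD at 20 weeks and CHOW at 8 weeks, not compared directly but in the same fit, all 4 pairs did, at 0.101 to 0.167. For HFD at 8 and 20 weeks 4 of 6 pairs did, so shared handling of some numbers cannot be told from these data. With the replicate block the counts of members called were 0, 3 and 0 for diet at 8, 20 and 34 weeks and 2 for time on HFD, and the block turned Thbs2 at 34 weeks to -0.051 and Tnc for time on CHOW to 0.071. Read depth is unknown from TPM, which limits what can be said of Ccn5 and Tnc, at a few TPM.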
